A study of Rattus norvegicus with 6 samples.

Results

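Heat shock protein genes were measured in the brains of sham-operated rats and of rats with a brain hemorrhage (intracerebral hemorrhage, ICH). The set of 10 genes was chosen by symbol, from Hspb1, Hspa1a, Hspa1b, Hspa8, Hsp90aa1, Hsph1, Dnajb1, Bag3 and Cryab to Hspd1, and a probe belonged to it when its RefSeq transcript was one of a gene in the set. Of the 10 genes, 7 had a probe, with 12 probes among the 30367 probes of the array, and all 12 were well above background on all 6 arrays. Hspa8 had 4 probes, Hsp90aa1 had 3, and Hspb1, Hsph1, Bag3, Cryab and Hspd1 had 1 each. No probe matched Hspa1a, Hspa1b or Dnajb1 by this rule, so no expression values are given for these 3 genes. The study hybridised total RNA labelled with Cy3 to 6 single-colour Agilent rat arrays, 3 sham and 3 ICH, 1 array for each sample. The labels call the sham samples brain tissue and the ICH samples peripheral brain tissue, and the title of the series places the injury studied around the hematoma. Both groups carry the label day 1, given as the age, and no strain, sex, dissected brain region or method of making the hemorrhage is given in the sources used here. The design text of the series names its 3 non-control replicates as transfected, a word that no label of a sample uses; the groups here follow the sample titles, and nothing else says what it refers to. The samples of a group are biological replicates per the labels, and no 2 arrays held the same values (0 pairs). Where values are given for each array, they follow the order of the replicate numbers.

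Heat shock proteins are molecular chaperones, which bind unfolded proteins, keep them from aggregating and help them to refold. Under stress the heat shock factor HSF1 forms a trimer and binds heat shock elements, runs of the unit GAA and its inverse TTC in alternation, in the promoters of inducible members such as Hspb1 and the stress-induced HSP70 genes. Hspa8 and Hsp90aa1 are also abundant in unstressed neurons, Cryab is abundant in oligodendrocytes and some astrocytes, and Hspb1 is known as an injury-responsive gene of reactive astrocytes and vascular cells.

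The RefSeq promoter table (build GRCr8) matched 7 of the 10 genes, and the 250 bases before the start that the table gives for each were searched for heat shock element pairs. For Hspd1 that start lies inside the annotated range of the gene, and so do all 250 bases of its window. A pair was written GAANNTTC or TTCNNGAA, where N is any base; each reads the same on both strands, and overlapping matches were counted separately. A pair was present in 6 of the 7 windows (Bag3, Hspa8, Hspd1, Hsph1, Hspb1 and Dnajb1), against 13.5% of all 33469 promoter windows of this length. A run of 3 units, GAANNTTCNNGAA or TTCNNGAANNTTC, was present in 3 of the 7 (Hspa8, Hspd1 and Hsph1), against 0.663% of all windows. Of the 6 windows outside the annotated gene, 5 held a pair and 2 a run of 3 units. Hspa1a had no match in the 250 bases before its annotated start, and no other stretch of this gene was searched. The sequences shown are those of Hspb1, whose ICH values differed most from sham, and of Hsph1 and Hspa8, which hold a run of 3 units but had much smaller differences on these arrays. They run 5′ to 3′ on the strand of the gene, up to the base before its start, with the fixed letters of each pair in capitals. The windows lie at chr12:26432302-26432551 on the minus strand for Hspb1, chr12:10427118-10427367 on the plus strand for Hsph1 and chr8:50080264-50080513 on the plus strand for Hspa8.
Hspb1: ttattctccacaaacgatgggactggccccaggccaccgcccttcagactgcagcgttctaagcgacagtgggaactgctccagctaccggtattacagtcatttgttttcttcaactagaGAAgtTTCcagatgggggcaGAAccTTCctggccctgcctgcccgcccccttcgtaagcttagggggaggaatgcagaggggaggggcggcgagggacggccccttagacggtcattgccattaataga
Hsph1: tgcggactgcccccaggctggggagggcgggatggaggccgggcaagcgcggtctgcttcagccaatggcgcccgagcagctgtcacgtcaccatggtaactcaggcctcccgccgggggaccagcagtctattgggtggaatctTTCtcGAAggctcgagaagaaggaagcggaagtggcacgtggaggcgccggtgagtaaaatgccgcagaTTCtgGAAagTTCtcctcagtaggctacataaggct
Hspa8: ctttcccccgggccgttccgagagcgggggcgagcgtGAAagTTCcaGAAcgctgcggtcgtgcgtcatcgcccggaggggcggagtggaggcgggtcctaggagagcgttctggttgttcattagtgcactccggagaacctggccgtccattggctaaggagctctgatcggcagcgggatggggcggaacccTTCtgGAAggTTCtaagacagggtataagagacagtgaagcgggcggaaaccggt
The pairs of Hspb1 began 129 and 109 bases before the start, those of Hsph1 105, 36 and 31 bases before it, and those of Hspa8 213, 208, 55 and 50 bases before it. These matches describe the letters only, as binding was not measured.

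On each array 81.8% to 85.4% of the 58717 spots other than controls were well above background and 0 were saturated, and the number of arrays limits the precision. Values are the deposited log2 values, on which 0 is the 75th percentile of the array over the rows of the deposited table, 1 for each probe (75% of rows lay below 0 on each array). Differences are ICH minus sham on this log2 scale, with the standard error (SE) and p-value from limma, a linear model fitted to all 24650 probes that were well above background on at least 3 arrays. No probe on the array passed an adjusted p under 0.05 (0 of 24650, 0%), so no heat shock probe did, and none is said to have risen or fallen. At an unadjusted p under 0.05 limma gave 3699 probes, 15% of those tested, of which 1524 (6.18%) were higher and 2175 (8.82%) lower in ICH. All 3 ICH arrays lay above all 3 sham arrays for 10.8% of probes and below them for 16.7%. All 7 measured markers of neurons in general were well above background on all 6 arrays, as were all 7 of astrocytes and all 8 of oligodendrocytes.

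Hspb1 encodes the small heat shock protein HSP27 (HSP25 in rodents), which holds unfolded proteins in solution and stabilises actin filaments. Its probe (A_44_P992908) stood at 0.04, 0.12 and 0.25 on the sham arrays and at 2.44, 2.98 and 0.11 on the ICH arrays. In processed signal, before any scaling between arrays, these were 4923, 5264 and 5472 on the sham arrays and 28451, 43044 and 5820 on the ICH arrays. ICH 1 and ICH 2 were thus 4.96-fold and 7.18-fold above the sham mean, while ICH 3 lay inside the sham range, at 0.984 of the sham mean. The mean was 0.14 ± 0.10 in sham and 1.85 ± 1.52 in ICH (SD, n = 3 arrays each), a difference of 1.71 ± 0.72 (SE), or 3.27-fold, which did not pass (limma, adjusted p = 0.340). The difference was larger than that of 99.4% of probes tested, and the SD of Hspb1 among ICH arrays was larger than that of 98.2% of them. Without ICH 3 the difference was 2.58 and passed (limma, adjusted p = 0.0470), which by construction leaves out the array that lay at the sham level. It was 1.41 without ICH 1 and 1.14 without ICH 2 (adjusted p = 0.461 and 0.382).

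Cryab encodes alphaB-crystallin, another small heat shock protein, which can assemble with HSP27. Its probe (A_44_P531758) stood at 1.64, 1.81 and 1.86 on the sham arrays and at 1.26, 1.57 and 1.76 on the ICH arrays. ICH 1 and ICH 2 lay below every sham array and ICH 3 among them, so Cryab was not high on the 2 arrays where Hspb1 was. The difference was −0.24 ± 0.17 (limma, adjusted p = 0.512), with a 95% confidence interval from −0.65 to 0.18. Its sign depended on the scaling: with arrays centred on their spike-in probes, which moved the median of all probes from −0.04 to 0.40, it was 0.21. Without ICH 1 it was −0.10. The 8 oligodendrocyte markers had a median of 0.28, −0.81 and −0.03 in ICH, relative to the sham mean (sham −0.26, 0.12 and 0.09), and their part in the Cryab values was not tested.

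**Figure D1:**
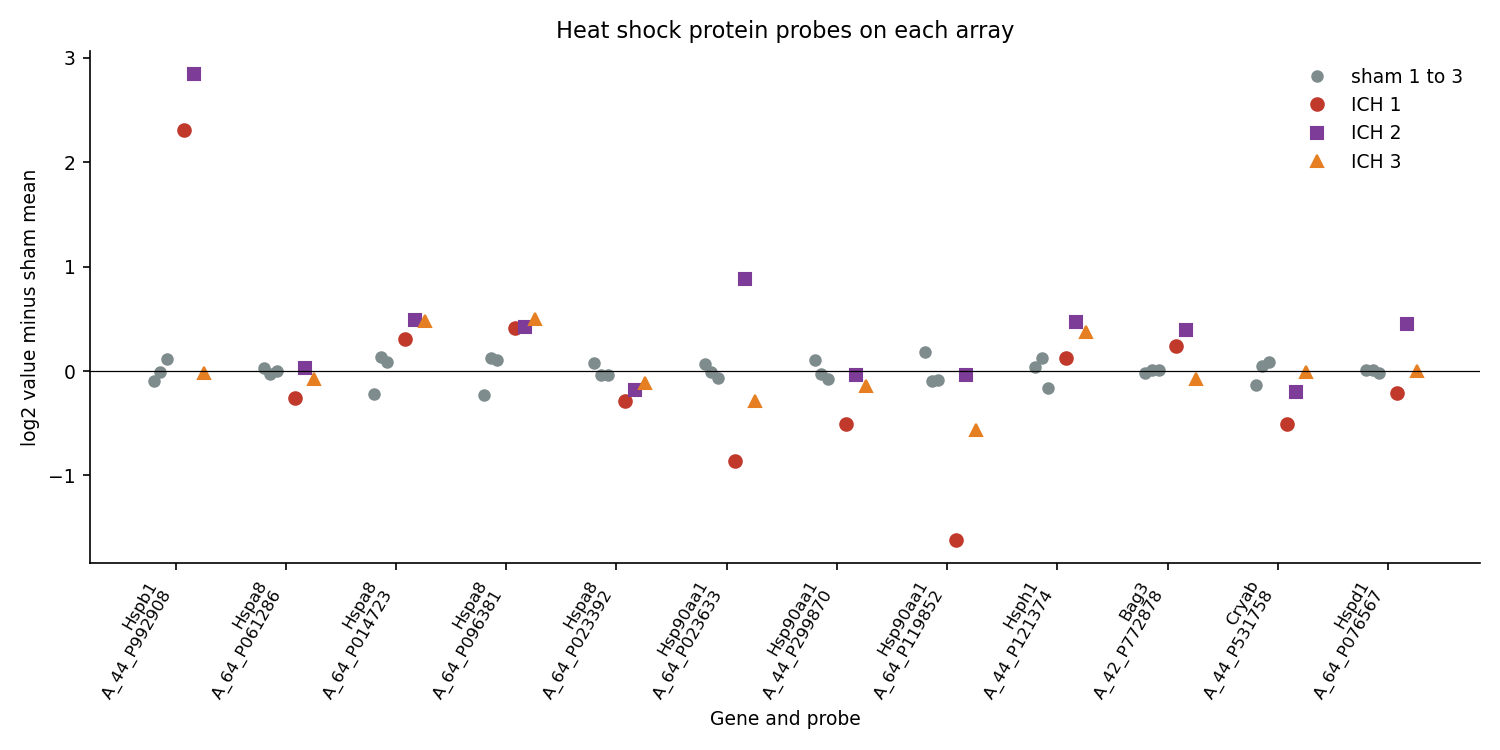
Log2 value minus the sham mean (vertical axis) for each of the 12 heat shock protein probes (horizontal axis), with 1 point for each array: grey circles for the 3 sham arrays, and a red circle, purple square and orange triangle for ICH 1, ICH 2 and ICH 3. Hspb1 stood at 2.31 and 2.84 on ICH 1 and ICH 2 and at −0.02 on ICH 3, and the other 11 probes lay between −1.62 and 0.88 on every array.

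Hspa8 encodes HSC70, the constitutive HSP70 protein, which among other tasks strips clathrin from synaptic vesicles. Its 4 probes, all for the same RefSeq transcript, did not move together. Probe A_64_P014723 stood at 0.54, 0.90 and 0.85 on the sham arrays and at 1.07, 1.25 and 1.24 on the ICH arrays, and A_64_P096381 at 0.86, 1.22 and 1.20 against 1.50, 1.52 and 1.60. For both of these every ICH array lay above every sham array, with differences of 0.42 ± 0.15 (limma, adjusted p = 0.305) and 0.45 ± 0.15 (limma, adjusted p = 0.293), or 1.34-fold and 1.36-fold. The other two went the opposite way. Probe A_64_P023392 stood at 3.49, 3.37 and 3.38 on the sham arrays and at 3.13, 3.23 and 3.30 on the ICH arrays, with every ICH array below every sham array, and A_64_P061286 at 3.03, 2.97 and 2.99 against 2.74, 3.02 and 2.92, where the groups overlapped. Their differences were −0.19 ± 0.12 and −0.11 ± 0.13 (limma, adjusted p = 0.472 and 0.699), and these became 0.03 and 0.14 with quantile normalization and 0.25 and 0.34 with spike-in centring. Without ICH 1 that of A_64_P061286 was −0.03. The 2 probes that were lower in ICH were the brighter, with processed signals of 34811 to 54072, against 6988 to 16290 for the other 2. The part of brightness in the disagreement was not tested. The probe sequences and their positions along the transcript were not used here, so no value for Hspa8 as a gene is given. Sham 1 was the lowest sham array on both probes that were higher in ICH, and without it neither had an unadjusted p under 0.05. The same held without ICH 3, with median centring and with the replicate number as a block. With the slide row as a block, which sets ICH 1 alone against sham, their differences were 0.31 and 0.41.

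Hsph1 encodes HSP110 (HSP105), which exchanges the nucleotide of HSP70 and takes part with it in dissolving aggregates. Its probe (A_44_P121374) stood at 0.18, 0.27 and −0.02 on the sham arrays and at 0.27, 0.62 and 0.52 on the ICH arrays. All ICH values were above all sham values, but ICH 1 and sham 2 were at the same value to 2 decimals. The difference was 0.32 ± 0.16, or 1.25-fold (limma, adjusted p = 0.375).

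Hsp90aa1 encodes the stress-inducible HSP90 alpha, which matures kinases and steroid receptors. Probe A_64_P119852 stood at 1.65, 1.37 and 1.38 on the sham arrays and at −0.15, 1.43 and 0.91 on the ICH arrays, and A_44_P299870 at 1.76, 1.63 and 1.58 against 1.15, 1.62 and 1.51. On both, ICH 1 and ICH 3 lay below every sham array and ICH 2 lay within them. Probe A_64_P023633 stood at 0.33, 0.25 and 0.19 on the sham arrays and at −0.61, 1.14 and −0.03 on the ICH arrays, so that ICH 2 lay above every sham array there. ICH 1 was the lowest array on all 3 probes, at −1.62, −0.51 and −0.86 from the sham mean. The differences were −0.74 ± 0.40, −0.23 ± 0.17 and −0.09 ± 0.43 (limma, adjusted p = 0.411, 0.516 and 0.927), and without ICH 1 they were −0.30, −0.09 and 0.30. With spike-in centring A_44_P299870 and A_64_P023633 were at 0.21 and 0.35, while A_64_P119852 kept its sign.

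Bag3 is a co-chaperone that links HSP70 and small heat shock proteins to autophagy, and its probe (A_42_P772878) had 10 spots on each array, with an SD between spots of 0.03 to 0.08. It stood at 0.75, 0.78 and 0.78 on the sham arrays and at 1.01, 1.16 and 0.69 on the ICH arrays. As for Hspb1, ICH 1 and ICH 2 were higher than any sham array and ICH 3 was not, with 0.24, 0.39 and −0.08 relative to the sham mean. The difference was 0.18 ± 0.16 (limma, adjusted p = 0.577), 0.08 without ICH 2 and 0.31 without ICH 3. Hspd1 encodes HSP60, the chaperonin of the mitochondrial matrix, and its probe (A_64_P076567) stood at 1.77, 1.77 and 1.74 on the sham arrays and at 1.55, 2.21 and 1.76 on the ICH arrays. ICH 2 was above and ICH 1 below the sham arrays, and ICH 3 was among them. The difference was 0.08 ± 0.19 (limma, adjusted p = 0.848), −0.10 without ICH 2 and 0.23 without ICH 1.

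**Figure D2:**
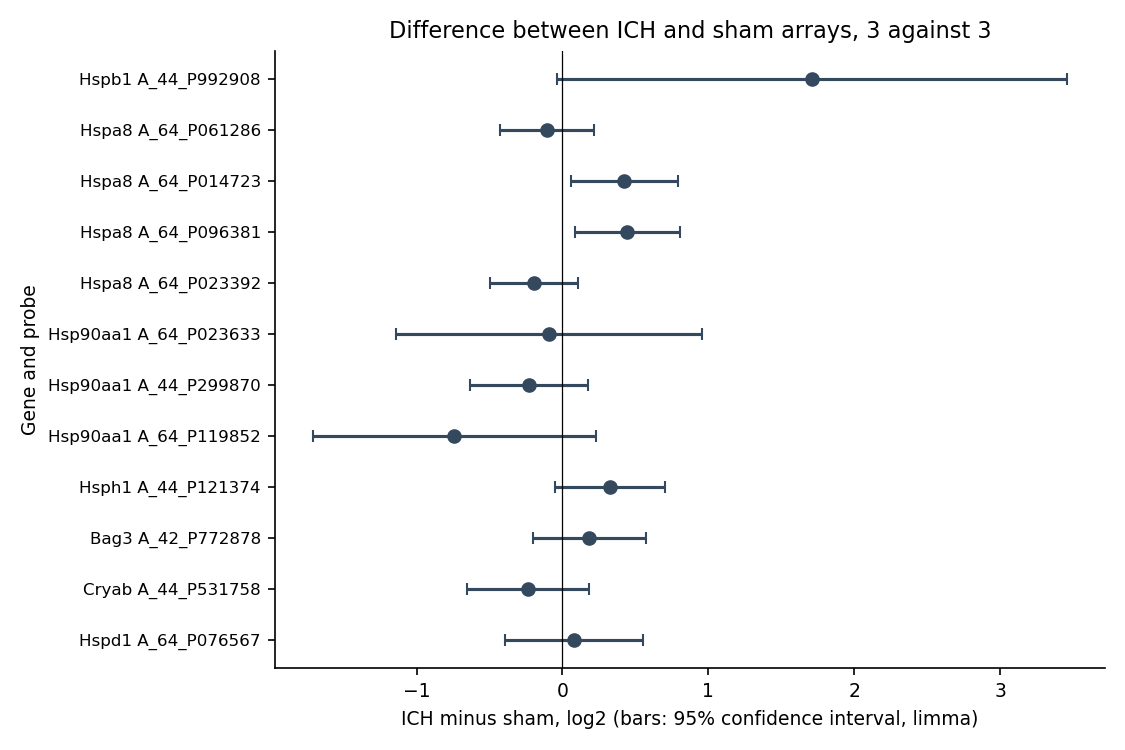
Difference between ICH and sham on the log2 scale (horizontal axis) for each of the 12 probes (vertical axis), with the 95% confidence interval from limma (3 arrays against 3) as bars. The interval of Hspb1 reached from −0.04 to 3.46, and only those of the Hspa8 probes A_64_P014723 and A_64_P096381 lay wholly above 0.

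Of the 12 probes 6 were higher and 6 lower in ICH, with a median difference of 0.00 beside −0.04 for all probes tested, of which 45.7% were higher. At an unadjusted p under 0.05 there were 2 higher and 0 lower, both of Hspa8, against the 6.18% and 8.82% of all probes given above. The groups did not overlap for 4 probes, against 27.5% of all probes tested. All ICH arrays lay above all sham arrays for 3, 2 of Hspa8 and that of Hsph1, and below them for 1, again of Hspa8. The ICH arrays differed from each other: the median of the 12 probes relative to the sham mean was −0.24 on ICH 1, 0.41 on ICH 2 and −0.05 on ICH 3, beside 0.00, −0.10 and −0.04 for all probes. ICH 1 lay below every sham array for 7 of the 12 and above for 5 (36.3% and 37% of all probes), ICH 2 below for 2 and above for 7 (47.1% and 35%), and ICH 3 below for 6 and above for 3 (37.3% and 28.1%). The SD among ICH arrays was larger than that among sham arrays for 10 of the 12 probes (83.3%, against 79.8% of all probes), with medians of 0.24 and 0.10 for the 12 and 0.31 and 0.14 for all probes.

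A wider list of 79 further heat shock and chaperone genes was read in the same fit at the brightest probe of each gene, and 71 of them were measured. Of these 39 were higher and 32 lower, with a median difference of 0.04, beside 47.3% higher and a median of −0.02 for the 12965 genes with a symbol. None passed over all probes, and 7 higher (9.86%) and 0 lower had an unadjusted p under 0.05, where 6.49% and 7.67% of genes with a symbol did. All ICH arrays lay above all sham arrays for 17 (23.9%, against 11.5% of genes with a symbol) and below them for 8 (11.3%, against 16.2%). The median of the list was 0.18 with quantile normalization, −0.01 with median centring and 0.49 with spike-in centring. The genes named here beyond the brightest or most changed of each list were chosen after their values were seen.

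Of the regulators, Hsf1, the heat shock factor itself, differed by 0.17 ± 0.12 (limma, adjusted p = 0.513) and its binding protein Hsbp1 by −0.04 ± 0.12 (adjusted p = 0.867). Hsf2, which can join Hsf1 in mixed trimers, was at 0.00, 1.12 and 0.05 in ICH relative to the sham mean, high on ICH 2 alone, with a difference of 0.39 and of 0.82 by another probe. Among 8 further HSP70 and HSP110 genes 4 were higher and 4 lower. Hspa2, an HSP70 known best from the testis, was the 1 gene of the 8 (12.5%) with an unadjusted p under 0.05 by limma. Of genes with a symbol 6.49% were higher and 7.67% lower at that p. Hspa2 stood at 1.32, 1.08 and 0.63 in ICH against −0.07 to 0.05 in sham (1.01 ± 0.20, limma, adjusted p = 0.258). It was higher on all 3 ICH arrays, including ICH 3. Hspa1l, which lies in the same gene cluster as the stress-induced HSP70 genes, stood at 1.12, 2.93 and 0.31 in ICH against −0.23, 0.47 and −0.24 in sham (1.46 ± 0.66, limma, adjusted p = 0.361).

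Of 13 genes of the HSP90 family and its co-chaperones 9 were higher in ICH and 4 lower (median 0.17), and all ICH arrays lay above all sham arrays for 5 (38.5%, against 11.5% of genes with a symbol) and below for 1 (7.69%, against 16.2%). The median was 0.06 without ICH 2 and 0.03 with the mean of a gene's probes in place of the brightest. The immunophilin gene Fkbp4, which carries steroid receptors with HSP90, stood at 0.34, 0.51 and 0.24 in ICH against −0.16, 0.05 and 0.11 in sham (0.36 ± 0.15, limma, adjusted p = 0.330). Stip1 (HOP), which passes clients from HSP70 to HSP90, was higher by 0.28 ± 0.13, and the HSP70 partner St13 (HIP) by 0.32 ± 0.13, where another probe of St13 gave 0.06. Cdc37, also among those 5 genes, was higher by 0.33 ± 0.15, where its other probe gave −0.32. The constitutive HSP90 gene Hsp90ab1 differed by −0.19 ± 0.13, and its other probe by 0.25, so these probes too disagreed. Hsp90b1, the HSP90 of the endoplasmic reticulum, differed by 0.02 ± 0.11.

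Among 7 further small heat shock proteins 2 were higher and 5 lower. Hspb6 and Hspb8, the brightest, differed by −0.13 ± 0.14 and 0.16 ± 0.18 (limma, adjusted p = 0.659 and 0.672). Cryaa, the alphaA-crystallin known from the lens, had the largest difference, at 2.94, 3.94 and 0.41 in ICH, but it spread from −1.16 to 1.23 over the sham arrays, and ICH 3 lay within that range (2.43 ± 1.02, limma, adjusted p = 0.339). Hspb3, a muscle-type member that was well above background on 5 arrays, stood at −1.50, −3.21 and 0.04 in ICH (−1.55 ± 0.81, limma, adjusted p = 0.398). Of the small heat shock proteins measured, Hspb1 and Cryaa alone had both ICH 1 and ICH 2 above every sham array.

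Of 18 DnaJ (HSP40) co-chaperones, which bring clients to HSP70, 10 were higher and 8 lower, and 3 higher (16.7%, against 6.49% of genes with a symbol) and 0 lower (against 7.67%) had an unadjusted p under 0.05 by limma. Dnajb4 stood at 0.44, 0.66 and 0.56 in ICH against −0.16, 0.19 and −0.02 in sham, a difference of 0.55 ± 0.15, and Dnajb5 differed by 0.36 ± 0.14 (limma, adjusted p = 0.288 and 0.328). All ICH arrays lay above all sham arrays for 4 of the 18 (22.2%, against 11.5%) and below for 4 (22.2%, against 16.2%). Of 9 BAG proteins and partners in nucleotide exchange or degradation 5 were higher and 4 lower. Hspbp1, a nucleotide exchange factor of HSP70, stood at 0.73, 0.51 and 0.50 in ICH against −0.27, 0.11 and 0.16 in sham (0.58 ± 0.17, limma, adjusted p = 0.288). Bag4 differed by 0.38 ± 0.14 (limma, adjusted p = 0.317), where another probe gave −0.17. Of 11 mitochondrial and other chaperonin or protease genes 6 were higher and 5 lower. At an unadjusted p under 0.05 by limma there were 0, against 6.49% higher and 7.67% lower of genes with a symbol. All ICH arrays lay above all sham arrays for 3 of the 11 (27.3%, against 11.5%) and below for 1 (9.09%, against 16.2%). Hspe1, the partner of HSP60, differed by −0.06 ± 0.15, and Tcp1, a subunit of the cytosolic chaperonin, by −0.07 ± 0.12. The collagen chaperone gene Serpinh1 (HSP47) differed by 0.12 ± 0.23 and stood at −0.12, 0.61 and −0.13 in ICH.

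**Figure D3:**
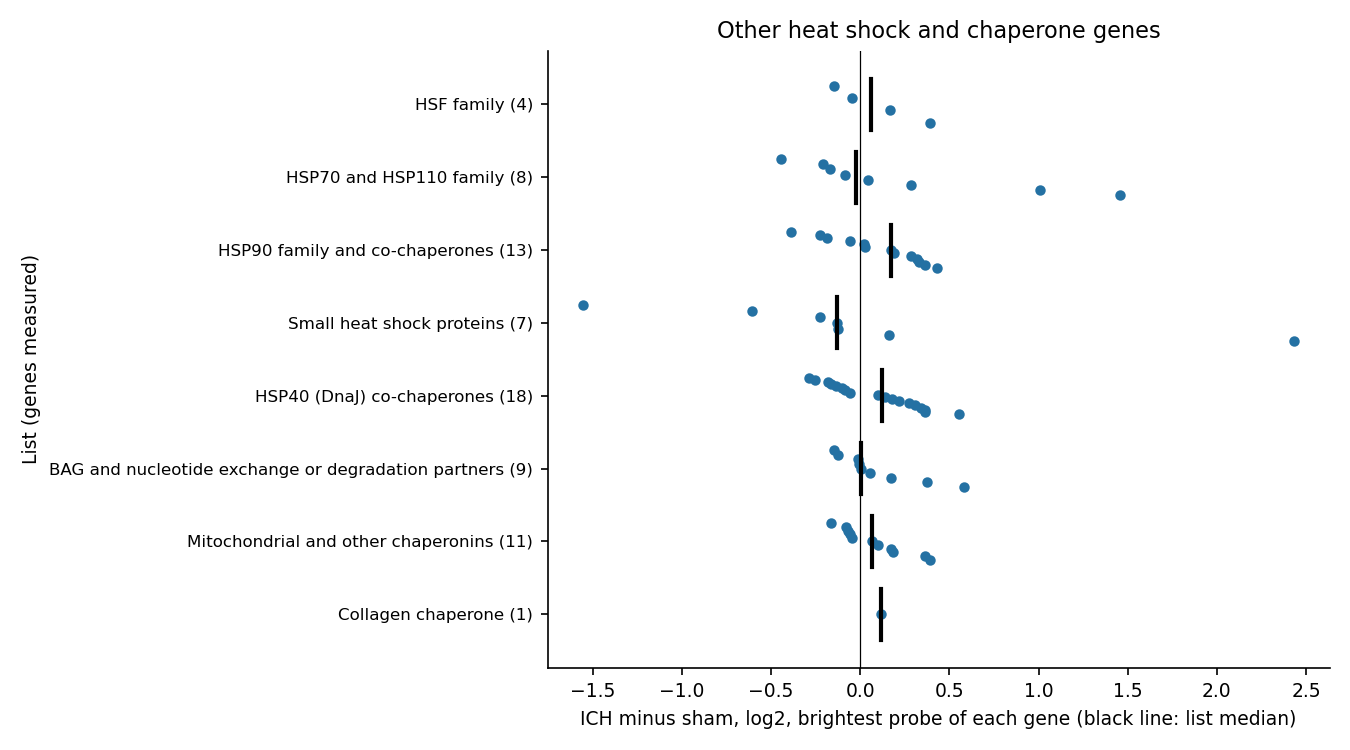
Difference between ICH and sham on the log2 scale (horizontal axis) for 71 further heat shock and chaperone genes, 1 point for each gene at its brightest probe, by list (vertical axis), with black lines at the list medians. List medians lay between −0.13 and 0.17, and Cryaa at 2.43 and Hspb3 at −1.55 were the outermost genes.

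On ICH 1 and ICH 2, where Hspb1 was high, the medians of reactive astrocyte, myeloid and neutrophil markers were also above those on every sham array. Relative to the sham mean, the median of 8 reactive astrocyte markers was 0.87, 0.86 and −0.38 in ICH (sham −0.02 to 0.06), and that of 8 myeloid markers 2.29, 2.95 and −0.56 (sham −0.28 to 0.24). Of these lists 6 of 8 and 7 of 8 markers were higher. Single markers differed from the medians. Serpina3n stood at 6.93, 8.36 and 2.13 in ICH and Spp1 at 3.48, 3.47 and 1.22, each above every sham array. Lcn2 stood at 4.78, 5.58 and 0.20, with sham at most 0.16. Lyz2 stood at −0.52, −0.26 and −0.57, below every sham array. So did the reactive astrocyte markers S1pr3, at −0.75, −0.41 and −0.68, and Cd44, at −0.67, −2.89 and −0.43. The brightest probe of Cd44 differed by −1.33, where its other probes gave 1.43 and 0.24. All ICH arrays lay above all sham arrays for 2 reactive astrocyte markers and 1 myeloid marker, and below for 2 and 1. Of genes with a symbol 11.5% and 16.2% did. The 4 neutrophil markers well above background on all 6 arrays, 2 higher and 2 lower, had a median of 1.22, 1.40 and −0.17 (sham −0.72 to 0.74). Of these S100a8 stood at 3.12, 3.25 and −0.22 and S100a9 at 2.38, 3.27 and −0.11, while Camp and Ngp differed by −0.02 and −0.76. Mmp9 was well above background on 0 sham and 3 ICH arrays and Cxcr1 on 1 and 3, so that both reached the filter through the ICH arrays and are left out of these values, and Cxcr2 did not reach it. As a sum of linear values over the list, against a sham mean of 1, reactive astrocyte markers ran from 0.735 to 4.33 in ICH and 0.941 to 1.03 in sham, myeloid markers from 0.721 to 2.26 and 0.889 to 1.12, and the 4 neutrophil markers from 0.896 to 5.78 and 0.536 to 1.53. All reactive astrocyte and myeloid markers were well above background on all 6 arrays. Most markers of vessels were not high on those arrays, with 1 higher and 5 lower in either list. The median of 6 endothelial markers was −0.37, −0.79 and −0.31 in ICH (sham 0.01, −0.04 and 0.01). That of 6 mural cell markers was −0.24, −0.41 and −0.36 (sham 0.24, 0.02 and −0.22), so that ICH 1 lay near sham 3. Summed values of the 2 lists were 0.622 to 0.835 and 0.781 to 0.833 in ICH and 0.989 to 1.01 and 0.867 to 1.15 in sham. The exception in the mural list was Des, the muscle filament desmin, at 0.66, 0.84 and −0.35 in ICH against at most 0.23 in sham. With spike-in centring the endothelial median was −0.04 and the mural one 0.13. The part of these cell types in the Hspb1 values was not tested, and in whole tissue fewer cells of a type and less RNA in each cell cannot be told apart. The brain region dissected is not given, and its part in these values was not tested either.

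**Figure D4:**
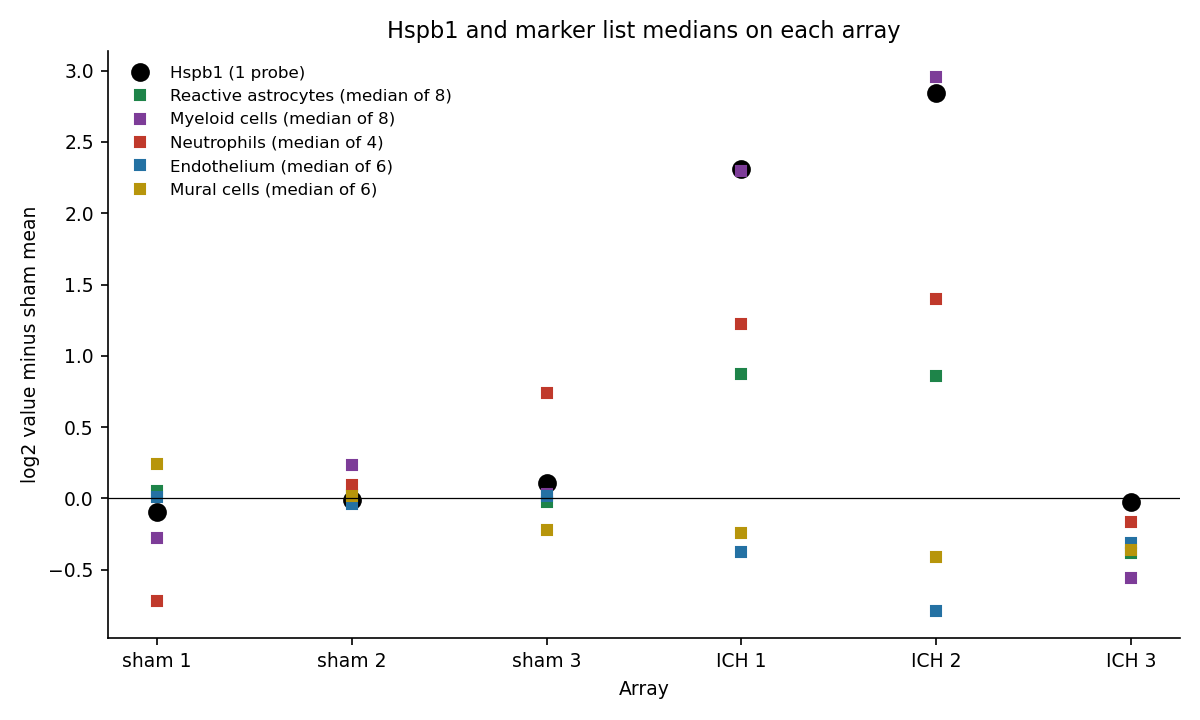
Log2 value minus the sham mean (vertical axis) of the Hspb1 probe (black circles) and of the median of 5 marker lists (coloured squares; markers well above background on all 6 arrays) on each of the 6 arrays (horizontal axis). On ICH 1 and ICH 2 Hspb1 stood at 2.31 and 2.84 and the myeloid median at 2.29 and 2.95, while on ICH 3 they stood at −0.02 and −0.56.

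The genes whose 6 array values, relative to the sham mean, lay nearest to those of Hspb1 were Ncf4, a subunit of the phagocyte oxidase, Gpnmb, a glycoprotein of phagocytes, and Fcgr2b, an immunoglobulin receptor of myeloid and B cells. Their root mean square distances over the 6 arrays were 0.17, 0.20 and 0.23 on the log2 scale. Ncf4 stood at 2.41, 2.65 and −0.16 in ICH. For Hsph1 the nearest were Crk, Chchd3 and Chtf8, at distances of 0.04, 0.06 and 0.06, and Crk stood at 0.17, 0.47 and 0.28 in ICH beside 0.13, 0.47 and 0.37 for Hsph1.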

How the data were processed

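Total RNA of 3 sham and 3 ICH samples was measured on 1 single-colour array each. Per the file headers, the deposited scanner intensity values came from Agilent Feature Extraction 11.5.1.1 (10.7 per the submitters' processing notes), background-subtracted and detrended within each array; the same files hold the flags of 0 or 1, the other columns used, as the authors deposited them. The deposited log2 values, the main values here, equal the mean log2 intensity of a probe's spots minus 1 constant for each array, within 0.001 for 98.5% to 99.3% of probes; the step was worked out from the values. Probe accessions were matched to RefSeq transcripts of GRCr8 (18355 of 30367 probes with 1 symbol, 12012 with none).

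Probes were kept when at least 0.5 of their spots were well above background on at least 3 of the 6 arrays. Differences were tested with limma 3.58.1 (R 4.3.3; lmFit, eBayes, no covariate, 6.17 degrees of freedom) and adjusted by Benjamini-Hochberg over all 24650 probes. The fit was tested on simulated data. Lists were read at the probe of highest mean per gene. Every member probe is named, as are the 3 genes nearest to Hspb1 and to Hsph1. Of each heat shock list the text names the 2 genes with the largest difference at an unadjusted p under 0.05, or else the brightest 2. This rule was not followed for the marker lists, whose named genes were chosen after their values were seen. Marker lists covered neurons, astrocytes, reactive astrocytes, oligodendrocytes, microglia, myeloid cells, neutrophils, endothelium, mural, erythroid and choroid plexus cells, and striatal and cortical projection neurons. The members and lists were chosen with earlier results of these data known. All arrays share 1 slide. Tables used Python 3.11.15 and figures matplotlib 3.10.9.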

Additional observations from a re-analysis of the deposited data

How the results depend on the processing

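Of the 12 probes, Hspb1, Hsph1, Bag3, the Hspa8 probes A_64_P014723 and A_64_P096381 and the Hsp90aa1 probe A_64_P119852 kept their direction under all 17 alternatives; that of Hspb1 ran from 1.14 to 2.58, with an adjusted p from 0.0470 to 0.731. Directions that turned are given above for Hspa8 and Hsp90aa1 (0.34 and 0.25, and 0.35 and 0.21, with spike-in centring; 0.14 and 0.025 with quantile normalization; −0.58 to 0.30 with 1 array left out for A_64_P023633, and 0.01 without ICH 3), for Cryab (0.21 with spike-in centring) and for Hspd1 (−0.051 with array quality weights, −0.21 with the slide row as a block, −0.10 to 0.23 with 1 array left out); the cause was not tested. Over all probes, the number at an adjusted p under 0.05 was 3 with normexp background correction, 44 with spike-in centring, 4 with the filter on all 6 arrays, 4 with an intensity trend and robust variance and 8 with array quality weights, and 0 to 31 with 1 array left out (8 without ICH 2 and 31 without ICH 3). At an unadjusted p under 0.05 it was 6035 with spike-in centring (5836 higher and 199 lower), and 1537 to 5203 with 1 array left out (1537, 2273 and 1970 without sham 1, 2 and 3). Median centring gave 1078 higher and 2589 lower. The number of heat shock probes at that p was 0 with median centring, 4 with spike-in centring, 4 with the trend, 1 with the replicate block and 0 to 3 with 1 array left out (0 without sham 1, 1 without sham 3, 1 without ICH 3). With the replicate block and without ICH 3 that 1 probe was Hspb1. Of all 24650 probes there were 3667 at that p with median centring, 6035 with spike-in centring, 3930 with the trend and 2754 with the replicate block. The median of the 12 was 0.44 with spike-in centring and −0.14 to 0.19 with 1 array left out, and that of the wider list 0.18 with quantile normalization, −0.011 with median centring and 0.49 with spike-in centring. Replicate numbers are not stated to pair the arrays. Deviations of same-numbered arrays correlated at −0.19, −0.01 and 0.07, and those of differently numbered arrays at −0.12 to 0.17. With 3 arrays a group these values cannot exclude a pairing. The replicate block called 0 probes, with 2754 at an unadjusted p under 0.05. With the slide row as a block the comparison is sham against ICH 1, which lay below every sham array for 7 of the 12 probes and above for 5. In that fit the Hsp90aa1 probes A_64_P119852 and A_44_P299870 were at −1.62 and −0.51 and Cryab at −0.51, while Hspb1 was at 2.31. Normexp used the median spot signal, since the mean is not among the columns. Of the 12 probes, 6 have 1 spot on each array, and 3 arrays a group limit what could be called.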

Other observations

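Other marker lists showed how the tissue samples differed beside the heat shock genes, as values only. Striatal projection neuron markers had a median of −0.83, −1.58 and −1.30 in ICH relative to the sham mean (sham 0.39, 0.46 and −0.85), and all 6 were lower. Cortical projection neuron markers had a median of 0.95, 1.53 and 1.05 (sham 0.37, −0.56 and 0.24), and all 5 measured were higher. Homeostatic microglia markers (2 higher and 3 lower) had a median of −0.39, −0.59 and −0.40 in ICH, and astrocyte markers (1 higher and 6 lower) −0.37, −0.47 and −0.20, but with spike-in centring the median differences of both lists were above 0, at 0.02 and 0.09. Markers of neurons in general, 4 higher and 3 lower, had a median difference of 0.20, and of 0.08 without ICH 3 or with the slide row as a block. Erythroid markers, 3 higher and 1 lower, had a median of 0.45, 0.53 and 0.37 in ICH (sham 0.61, −0.38 and −0.24). The probes of the hemoglobin genes disagreed: the brightest of Hbb and Hba-a1 differed by 0.64 and 0.22 and the other by 2.41 and 2.47, and the median difference of the list was 0.43 at the brightest probe and 1.43 with the mean of a gene's probes. The 3 choroid plexus markers well above background on all 6 arrays, 2 higher and 1 lower, had medians from −1.16 to 0.90 over the sham arrays and from −0.36 to 0.63 over the ICH arrays. None of these genes passed over all probes by limma.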
